A study of Macaca fascicularis with 6 samples.

Results

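A set of 40 genes of the cynomolgus monkey (Macaca fascicularis) oocyte stood lower in oocytes matured in culture than in both immature oocytes and oocytes matured in the animal. They were chosen from 28164 genes by their own values: the lowest of the 4 libraries of immature and in vivo matured oocytes had to reach at least 5 CPM (a gene's count as parts per 1000000 of the library total) and at least 2 times the higher of the 2 libraries of culture-matured oocytes. Both thresholds were passed by 68 genes, of which 28 were left out by name (26 with only a LOC identifier and 2 ZNF genes). Because every library entered this choice, the low values after culture are a description of the members and carry no test.

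The study compared 3 groups of wild type, untreated, stripped oocytes (freed of their surrounding cells), with 2 libraries each. GV oocytes are immature and still hold the germinal vesicle, their large prophase nucleus. MII oocytes are mature and rest at metaphase of meiosis II: the IVM kind matured in vitro, the IVO kind in vivo. Libraries were of the Smart-seq type, with oligo-dT priming and full-length amplification by PCR. No age, culture medium or hormone regimen is given in the sources used here, nor is the number of oocytes or animals behind a library, so the p-values below measure spread between these libraries, which may be technical.

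A fully grown oocyte hardly transcribes, and it lives through maturation on mRNA that it stored while growing. During maturation part of this store is recruited for translation by lengthening of the poly(A) tail, and part is shortened and degraded. An oligo-dT primer needs the tail, so values from such libraries depend on both the amount of an mRNA and its tail, and these cannot be told apart here. In bulk samples, less RNA per oocyte and fewer oocytes of a kind cannot be told apart either.

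Library totals ran from 27707021 to 35515139 counts. The 14 oocyte markers checked were all present at 1 CPM or more in every library, and summed to 30177 and 35030 CPM in GV, 19468 and 19082 after culture, and 8621 and 11688 in IVO MII. Markers of surrounding cells summed to 89.9 and 108 CPM in IVM MII for cumulus and granulosa (30.8 to 54.1 in the other libraries; 5 of 16 at 0 throughout: PTX3, AMHR2, FOXL2, INHA and STAR), for theca, stroma and endothelium (12 genes, LUM and KDR at 0, most of the sum from VWF in GV) to 306 and 348 CPM in GV, 157 and 194 after culture, 81.3 and 84.2 in IVO MII, and for blood (9 genes, CD3E and HBB at 0) to 4.39 to 12.8 CPM. None of the members is on these lists, and the part of such cells in the members' values was not tested.

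The name "lost" is too strong for most of the members. No member was without counts in an IVM MII library, the lowest being 38 counts of SPOCK3, and 14 of the 40 kept more than 10 CPM in at least 1 IVM MII library. The members' summed share of all counts was 0.786% and 0.782% in the GV libraries, 0.218% and 0.233% after culture, and 0.726% and 0.717% in the IVO MII libraries. The ratio of the lowest GV or IVO MII value to the highest IVM MII value had a median of 2.62 over the members and reached 17.1, with 14 members at 3 or more and 6 at 4 or more. Among the 5260 other genes past the floor of 5 CPM and tested, its median was 0.413. The same rule with the GV libraries as the low group gave 995 of 5655 genes past the floor. With the IVO MII libraries it gave 322 of 5543, against 40 of 5300 for IVM MII. All of these counts use library totals as the scale. With TMM scaling factors the IVM MII count was 63, and the other groups were not counted with them.

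**Figure D1:**
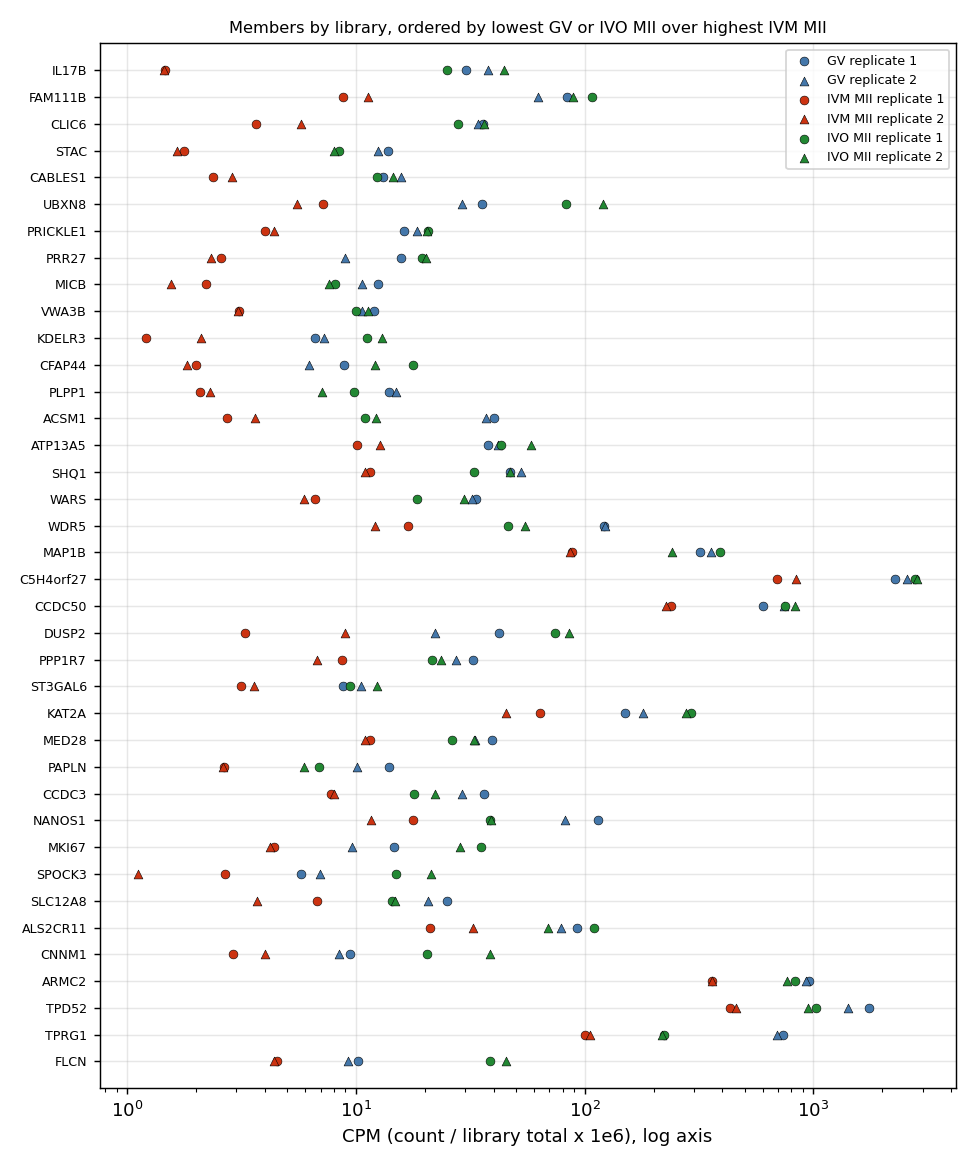
Each row is 1 of 38 of the 40 genes and each point 1 library, on a log axis of CPM; colours mark the 3 groups and shapes the 2 replicates. Both IVM MII points lie to the left of all 4 others in every row, as the rule requires, and the gap is widest for IL17B.

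The values at the edge of the rule show where it cuts a continuous spread. FLCN, TPRG1, TPD52 and CNNM1 lay just inside the ratio of 2, at 2.05 to 2.11, and FNDC7, WDR89, ANO1 and UBE2V1 just outside it, at 1.99 to 1.89. At the floor, SPOCK3 (5.76 CPM), PAPLN, CFAP44 and KDELR3 (6.62 CPM) lay inside, while NOL6 (4.91 CPM), FPGS, DNAH9 and RERG (4.17 CPM) lay outside.

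**Figure D2:**
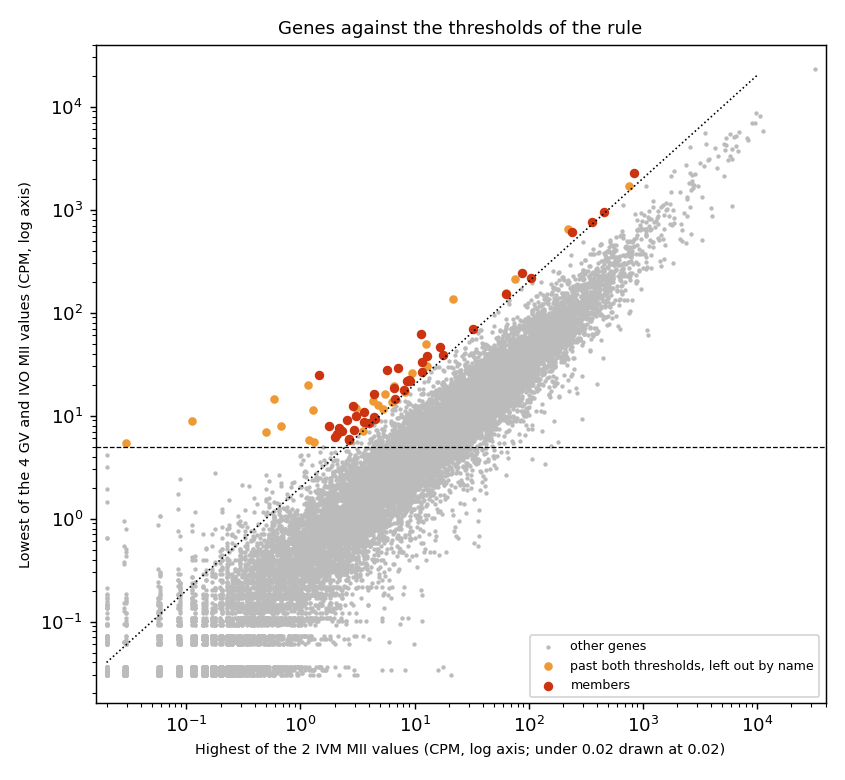
The highest IVM MII value (x axis) is plotted against the lowest GV or IVO MII value (y axis) for every gene with a count in all 4 GV and IVO MII libraries, both as CPM on log axes; IVM MII values under 0.02 are drawn at 0.02, the dashed line is the floor of 5 CPM and the dotted line the ratio of 2. Members and the 28 genes left out by name lie along the upper edge of the cloud, most of them close to the dotted line.

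Among secreted and surface proteins, the widest gap was that of IL17B, a cytokine of the interleukin-17 family (macFas5 chromosome 6, 148700379 to 148708249). IL17B stood at 30.4 and 37.6 CPM in GV, 1.46 and 1.45 in IVM MII but 25.0 and 44.6 in IVO MII. The GV and IVO MII values of IL17B overlapped, and its IVM MII level rested on 101 counts in all. MICB, a stress-induced ligand of the NKG2D receptor, stood at 12.5 and 10.6 CPM in GV, 2.20 and 1.56 in IVM MII but 8.12 and 7.63 in IVO MII. MICB belongs to a family of similar copies near the major histocompatibility complex, so its counts are uncertain. SPOCK3, a testican proteoglycan of the extracellular matrix, had 5.76 and 6.99 CPM in GV, 2.67 and 1.12 in IVM MII but 14.9 and 21.2 in IVO MII. Papilin (PAPLN), a matrix protein related to ADAMTS proteases, went the other way between the reference groups, at 13.9 and 10.1 CPM in GV and 6.89 and 5.93 in IVO MII, with 2.65 and 2.63 in IVM MII. The secreted protein gene CCDC3 had its IVO MII values, 17.9 and 22.1 CPM, below its GV values as well.

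Chromatin and nuclear genes included both a catalytic and a scaffold subunit of histone modifying complexes. KAT2A, the GCN5 acetyltransferase of the SAGA and ATAC complexes (chromosome 16, 53821961 to 53831175), stood at 150 and 179 CPM in GV, 63.5 and 45.3 in IVM MII but 293 and 277 in IVO MII. WDR5, a WD repeat scaffold of ATAC and of the MLL-type histone H3 lysine methyltransferases (chromosome 15, 4479873 to 4514499), stood at 121 and 123 CPM in GV, 16.9 and 12.1 in IVM MII but 46.1 and 54.9 in IVO MII. Thus KAT2A was highest in IVO MII and WDR5 highest in GV, without overlap of the groups in either gene. C5H4orf27, named after the human open reading frame that codes for the PARP1 cofactor HPF1, was the most abundant member, at 2281 and 2559 CPM in GV, 695 and 838 in IVM MII but 2775 and 2825 in IVO MII. Per kilobase of exon it also led the members, with 1856 CPM per kb in GV against 342 for TPD52 and 267 for ARMC2. MKI67, which codes for the Ki-67 protein that coats mitotic chromosomes, had 14.6 and 9.58 CPM in GV, 4.39 and 4.22 in IVM MII but 35.2 and 28.6 in IVO MII. MED28, a subunit of the Mediator complex, stood at 10.9 and 11.5 CPM in IVM MII and between 26.2 and 39.2 in the other libraries.

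Of the 3 members in RNA and protein synthesis, NANOS1 is a germ line partner of Pumilio proteins in translational repression. NANOS1 stood at 114 and 81.9 CPM in GV, 17.7 and 11.6 in IVM MII but 38.4 and 39.0 in IVO MII, so the IVO MII values lay between the other groups. WARS, the cytosolic tryptophanyl-tRNA synthetase, was at 6.59 and 5.93 CPM in IVM MII and 18.5 to 33.5 elsewhere. SHQ1, an assembly factor of H/ACA ribonucleoproteins, was at 11.5 and 11 CPM in IVM MII and 32.9 to 52.5 elsewhere.

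The 6 signalling and cell cycle members held regulators of kinases, of a phosphatase and of growth signalling. DUSP2, a nuclear phosphatase of MAP kinases (chromosome 13, 971092 to 973383), stood at 42.1 and 22.1 CPM in GV, 3.27 and 8.92 in IVM MII but 74.3 and 85.1 in IVO MII, with a wide spread between replicates in GV and IVM MII. FLCN, folliculin, which acts on the Rag GTPases upstream of mTORC1, stood at 10.2 and 9.24 CPM in GV, 4.51 and 4.40 in IVM MII but 38.7 and 45.1 in IVO MII. Its GV values were thus nearer to IVM MII than to IVO MII. CABLES1, which links cyclin-dependent kinases to ABL kinases, had 13.1 and 15.7 CPM in GV, 2.37 and 2.86 in IVM MII but 12.3 and 14.5 in IVO MII. PRICKLE1, of the planar cell polarity pathway, had 16.2 and 18.4 CPM in GV, 4.00 and 4.40 in IVM MII but 20.7 and 20.4 in IVO MII. GV and IVO MII overlapped for CABLES1 and not for PRICKLE1. The ubiquitin-binding adaptor CCDC50 was one of the abundant members, at 600 and 747 CPM in GV, 239 and 227 in IVM MII but 751 and 831 in IVO MII. PPP1R7, a regulatory partner of protein phosphatase 1, stood at 8.67 and 6.73 CPM in IVM MII and 21.4 to 32.6 elsewhere.

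Among endoplasmic reticulum, vesicle and lipid genes, the last taken to include mitochondrial lipid enzymes, UBXN8 is a membrane adaptor of the VCP ATPase in protein degradation from the endoplasmic reticulum (chromosome 8, 31334964 to 31359562). UBXN8 stood at 35.6 and 29.2 CPM in GV, 7.18 and 5.55 in IVM MII but 82.7 and 120 in IVO MII, rank order IVM MII, GV, IVO MII with no overlap. KDELR3, a receptor that returns escaped chaperones from the Golgi, had 6.62 and 7.26 CPM in GV, 1.21 and 2.10 in IVM MII but 11.2 and 13.0 in IVO MII. ACSM1, a mitochondrial acyl-CoA synthetase for medium-chain fatty acids, had the reverse order between the reference groups, with 40.2 and 37.1 CPM in GV, 2.73 and 3.63 in IVM MII but 10.9 and 12.2 in IVO MII. TPD52, a vesicle traffic protein first named in tumours, stood at 1752 and 1423 CPM in GV, 432 and 458 in IVM MII but 1028 and 948 in IVO MII. The phosphatidic acid phosphatase PLPP1 was at 2.08 and 2.30 CPM in IVM MII and 7.09 to 14.9 elsewhere, and the sialyltransferase ST3GAL6 at 3.13 and 3.57 and 8.75 to 12.4.

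Ion transport and channel genes were 6 of the members. CLIC6, of the chloride intracellular channel family, stood at 36.1 and 34.2 CPM in GV, 3.66 and 5.76 in IVM MII but 27.9 and 36.3 in IVO MII, so GV and IVO MII overlapped. STAC, an adaptor of voltage-gated calcium channels, had 13.8 and 12.5 CPM in GV, 1.77 and 1.65 in IVM MII but 8.45 and 8.01 in IVO MII. CNNM1, of a family of metal transport mediators, had 9.42 and 8.39 CPM in GV, 2.90 and 3.99 in IVM MII but 20.5 and 38.5 in IVO MII. For STAC the IVO MII libraries lay below GV and for CNNM1 above. The P5-type ATPase ATP13A5 stood at 10.1 and 12.8 CPM in IVM MII and 37.6 to 58.5 elsewhere. The solute carrier SLC12A8 was at 6.76 and 3.69 in IVM MII and 14.4 to 25.0 elsewhere.

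A group of 4 members is known from cilia and the sperm flagellum. ARMC2, needed for the sperm axoneme, stood at 960 and 928 CPM in GV, 361 and 362 in IVM MII but 828 and 763 in IVO MII. CFAP44, an axonemal protein, had 8.85 and 6.22 CPM in GV, 2.00 and 1.83 in IVM MII but 17.8 and 12.1 in IVO MII. ALS2CR11, a sperm tail gene, had 92.7 and 78.7 CPM in GV, 21.0 and 32.6 in IVM MII but 110 and 69.0 in IVO MII. The IVO MII replicates of ALS2CR11 lay on both sides of GV, whereas those of CFAP44 lay above GV.

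The remaining 5 members share no role. FAM111B, a trypsin-like protease, had the second largest ratio, 5.51, with 83.5 and 62.5 CPM in GV, 8.81 and 11.3 in IVM MII but 108 and 88.7 in IVO MII. MAP1B, a microtubule-associated protein of neurons, stood at 318 and 357 CPM in GV, 87.8 and 86.3 in IVM MII but 389 and 240 in IVO MII. TPRG1, named as a target of p63, stood at 737 and 690 CPM in GV, 100 and 105 in IVM MII but 222 and 217 in IVO MII. Thus TPRG1 lay below GV in both kinds of MII oocyte, while the IVO MII replicates of MAP1B lay on both sides of GV. PRR27, a proline-rich protein gene, had 15.8 and 8.97 CPM in GV, 2.56 and 2.33 in IVM MII but 19.4 and 20.2 in IVO MII, and VWA3B was at 3.07 and 3.04 in IVM MII and 10 to 12 elsewhere.

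The comparison of IVO MII with GV asks what the members did during maturation in the animal, and is the only test given for them, since the rule puts a floor under both groups but sets no direction between them. The members went both ways. By edgeR's quasi-likelihood test with Benjamini-Hochberg adjustment over all 15815 genes tested, 8 of the 40 were higher in IVO MII than in GV, 10 were lower and 22 had no call, of which 2 had an unadjusted p under 0.05. These are 20% and 25.0% of the members, where 28.1% and 30.5% of all genes tested were higher and lower, and 47.9% and 21.4% of the 5260 other genes past the floor. The rule limits the size of this difference, since the lower group must still reach 2 times the IVM MII values. The share that rose lay below both of these backgrounds. The share that fell lay below that of all genes tested but above the 21.4% of the other genes past the floor. Neither share is read as a trait of the members. Both IVO MII libraries lay above both GV libraries in 15 of the 40 members and below them in 17, and 8 overlapped. Over all genes tested, the shares above and below were 40.0% and 40.5%. The median log2 fold change was -0.18 over the members, -0.07 over all genes tested and 0.56 over the other genes past the floor.

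Rises and falls given here are relative to the other genes of a library, as no RNA amount per oocyte entered the scaling. FLCN rose most, 4.09-fold in IVO MII over GV (log2 fold change 2.03 ± 0.24, standard error, edgeR adjusted p = 3.34e-05). CNNM1 rose 3.11-fold, UBXN8 2.95-fold, SPOCK3 2.66-fold and MKI67 2.52-fold, with edgeR adjusted p from 0.000171 to 0.00348. The rises of DUSP2 (2.36-fold, adjusted p = 0.0248), CFAP44 (1.90-fold) and KAT2A (1.64-fold) were called as well. Among the members that fell, ACSM1 had the largest change, 3.53-fold (log2 fold change -1.82 ± 0.26, edgeR adjusted p = 0.000131). TPRG1 fell 3.43-fold, NANOS1 2.65-fold and WDR5 2.56-fold. PAPLN, PLPP1, CCDC3, STAC, TPD52 and SLC12A8 fell 1.96-fold to 1.65-fold. These 10 genes were thus lower in IVO MII than in GV by the test. They were lower still in IVM MII, as the rule requires of every member. The largest differences without a call were those of KDELR3 (log2 fold change 0.72, edgeR adjusted p = 0.0748), MICB (-0.62, 0.0645) and PRR27 (0.61, 0.0861).

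By role, the group of endoplasmic reticulum, vesicle and lipid genes had 1 gene that rose and 3 that fell among 6, secreted and surface proteins 1 and 2 among 5, ion transport 1 and 2 among 6, chromatin 2 and 1 among 5, and signalling 2 and 0 among 6. No test was run between roles.

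Single libraries moved the counts. Members that fell numbered 4 without GV replicate 1 and 6 without either IVO MII replicate, and those that rose 5 without IVO MII replicate 1. Calls over all genes dropped in number too. Without GV replicate 1, 3699 of 16625 genes tested were higher and 4037 lower, against 4442 and 4816 of 15815 in the main fit. Without IVO MII replicate 1 they numbered 3997 and 4283 of 16745, and without IVO MII replicate 2, 4096 and 4515 of 16689. A filter of 10 CPM in 2 libraries, under which 39 members were tested, gave 5 that rose and 17 that fell, with a median of -0.50. Over all 8048 genes tested with it, 2727 were higher and 2859 lower. Under this filter the log2 fold changes of all named members moved down by similar amounts, as for FLCN (2.03 to 1.70). DUSP2 lost its call without GV replicate 2, without either IVO MII replicate, with the replicate number as a block (edgeR adjusted p = 0.0525), without a low-count filter (0.164) and with the 10 CPM filter (0.0795). The 10 CPM filter also ended the calls of CFAP44 (edgeR adjusted p = 0.101) and KAT2A (0.138). Among named members it added lower calls for ARMC2 (edgeR adjusted p = 0.0254), MED28 (0.0138), MICB (0.00768), PPP1R7 (0.00636), SHQ1 (0.0145) and WARS (0.00923). KDELR3 was called higher with limma-voom (adjusted p = 0.0472) and in the 4 compared libraries alone (edgeR, 0.0348). Calls were also gained by KDELR3 without either IVM MII replicate (0.73, log2), PRR27 without GV replicate 1 (1.05) and WARS without IVO MII replicate 2 (-0.84). With 1 library left out, calls also ended for CFAP44 without GV replicate 2 (0.72) or IVO MII replicate 1 (0.57, log2), for KAT2A without GV replicate 1 (0.58) or IVO MII replicate 1 (0.64), and for PAPLN without GV replicate 1 (-0.74) or IVO MII replicate 2 (-0.81). STAC lost its call without any 1 of the 4 GV and IVO MII libraries (-0.83 to -0.65), and TPD52 without GV replicate 1 or either IVO MII replicate (-0.86 to -0.62). PLPP1 lost its call without GV replicate 1 (-0.91), GV replicate 2 (-0.76) or IVO MII replicate 2 (-0.58), and CCDC3 without GV replicate 1 (-0.65) or IVO MII replicate 1 (-0.68). SLC12A8 lost its call without any 1 of those 4 libraries (-0.83 to -0.60) and with library totals as the scale (-0.65). FLCN, CNNM1, UBXN8, SPOCK3, MKI67, ACSM1, TPRG1, NANOS1 and WDR5 kept their calls with each library left out, with both other scalings and both other filters, and with the replicate block, DESeq2 and limma-voom. A member without a call is not shown to be alike in GV and IVO MII.

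**Figure D3:**
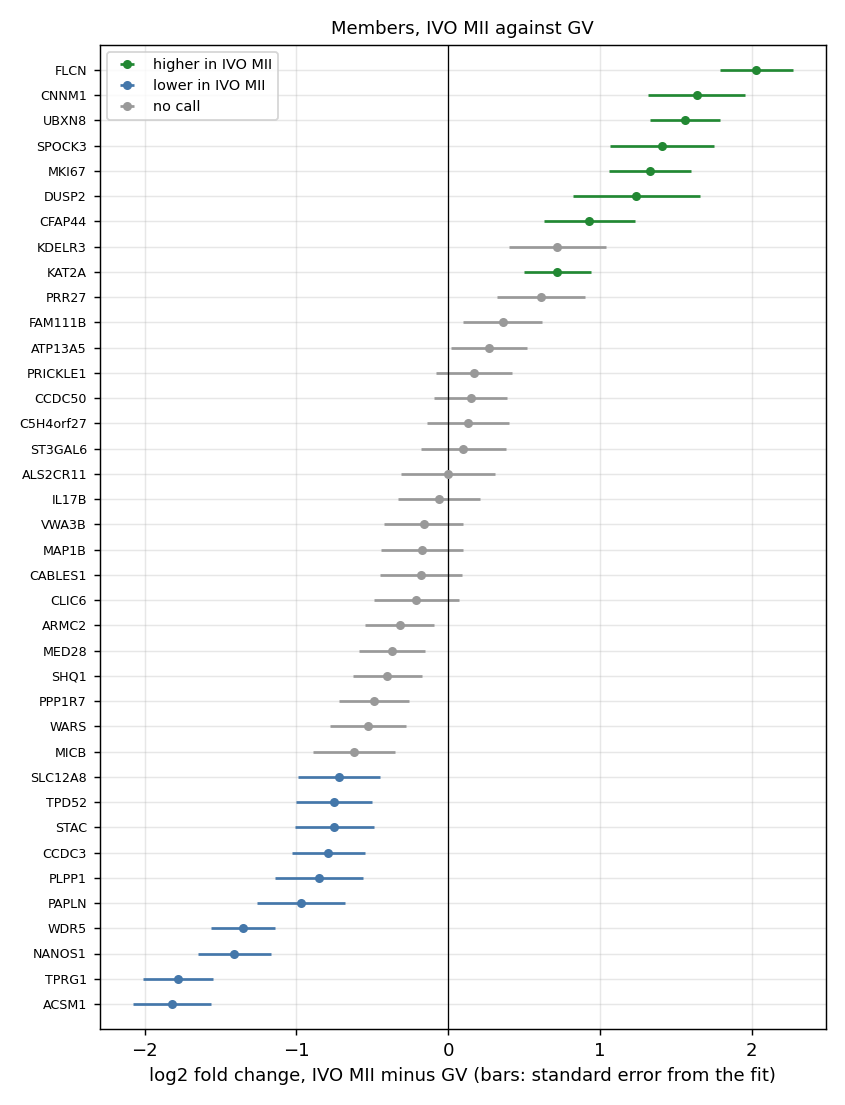
Points are the log2 fold changes of 38 of the 40 members between IVO MII and GV and bars the standard error from the fit; colours mark the edgeR call. The values run from -1.82 for ACSM1 to 2.03 for FLCN, with 20 genes in grey that have no call.

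Gene families and complexes around the members were compared between IVM MII and IVO MII with the members left out. In the list of SAGA and ATAC subunits, 4 of the 20 other genes tested were higher in IVM MII and 0 lower. The shares over all genes tested were 14.3% and 10.3%. The median log2 fold change of these 20 was 0.15, where all genes tested had 0.02. TAF9, a histone-fold subunit, stood at 298 and 305 CPM in IVM MII against 66.8 and 65.2 in IVO MII (log2 fold change 1.98 ± 0.22, edgeR adjusted p = 0.000128). TAF9B (1.39), MBIP (1.11) and SUPT3H (0.87) were the other 3 called higher. Against GV, 13 of the 20 were higher in IVM MII and 2 lower, where the shares over all genes tested were 25.6% and 24.7%. ENY2, the subunit with the lowest value against IVO MII, was at -0.66 (adjusted p = 0.0607). KAT2A and WDR5, low by the choice of members, were at -2.62 and -2.03 against IVO MII. The core subunits that WDR5 shares with MLL-type methyltransferases were not listed.

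Other MAP kinase phosphatases and ERK feedback genes also had their own levels. SPRED1, an inhibitor of RAS signalling, was higher in IVM MII than in IVO MII (8.0 and 10.7 against 1.08 and 1.70 CPM, log2 fold change 2.55 ± 0.37), as were SPRED2 (1.72) and DUSP5 (1.28), whereas DUSP14 was lower (-0.80), so that 3 of 10 were higher and 1 lower by edgeR. For VCP and its adaptors, 4 of 24 were higher and 0 lower. VIMP, a selenoprotein of the degradation machinery, was highest among them, at 198 and 179 CPM in IVM MII against 35.6 and 60.0 in IVO MII, and UBXN8 was at -4.21, where the rule set the sign and the least size of the difference. The interleukin-17 list held 6 tested genes other than IL17B (cytokines, receptors and a signalling adaptor), of which 2 were higher and 0 lower. IL17C, at 5.97 and 4.49 CPM in IVM MII, was under 1 CPM in every other library, and IL17RB, the receptor that binds IL17B, was at 9.83 and 11.2 CPM in IVM MII against 4.26 and 4.53 in IVO MII (log2 fold change 1.05 ± 0.29, edgeR adjusted p = 0.022). The other 6 lists (RAS-like GTPases, profilins and actin monomer binding, mitochondrial translation factors, growth cone genes, mRNA decay and histone lysine methyltransferases) held no member, and of their 119 tested genes 24 were higher and 19 lower. RAS-like GTPases had 4 of 22 higher and 8 lower, and histone lysine methyltransferases 5 of 30 higher and 1 lower. Some genes of these lists were lower after culture than any member and stood under the floor of 5 CPM in at least 1 GV library. RERG, a RAS-like GTPase, had 4.17 and 5.25 CPM in GV, 0 and 0 after culture, and 8.37 and 11.3 in IVO MII. GAP43, a growth cone protein, had 3.18 and 4.70 CPM in GV, 0 and 0 after culture, and 12.8 and 22.5 in IVO MII. GATB, a subunit of the mitochondrial glutamyl-tRNA amidotransferase, had 2.32 and 3.14 CPM in GV, 0.507 and 0.531 after culture, and 8.95 and 13.5 in IVO MII. Over all lists 37 of 179 genes were higher and 20 lower. These counts were 20 and 10 without IVM MII replicate 2, 28 and 11 without IVM MII replicate 1, and 45 and 10 with library totals as the scale, which moved the median of all genes by 0.22.

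**Figure D4:**
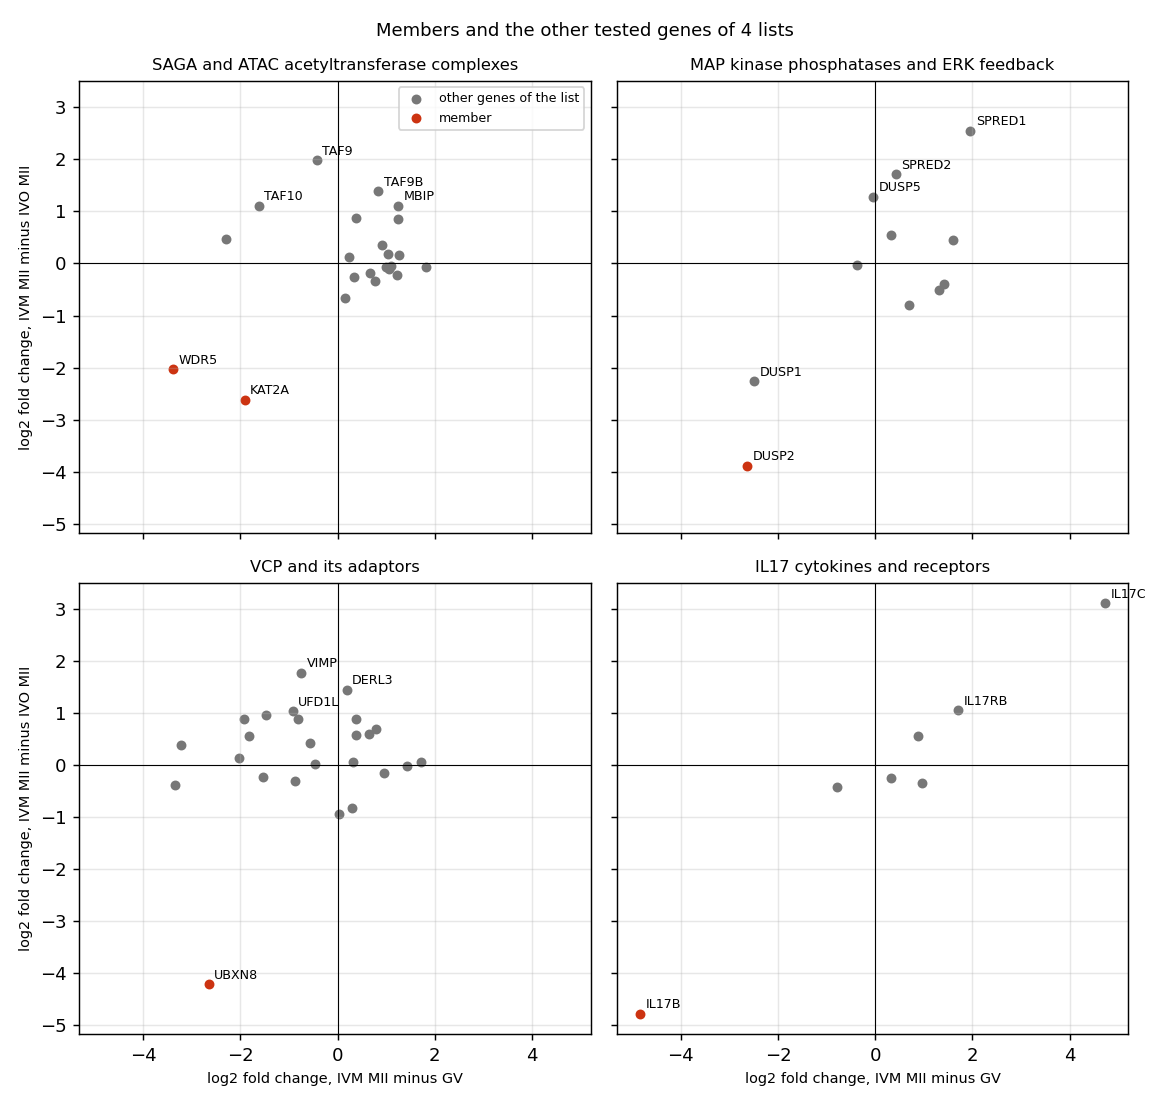
Each point is a gene of 1 of the 4 lists that hold members, with its log2 fold change of IVM MII over GV on the x axis and over IVO MII on the y axis; members are red and were chosen for low values on both. The other genes of these lists lie between -0.94 (UBXN2B) and 3.11 (IL17C) on the y axis, apart from DUSP1 at -2.26, which had under 1 CPM in every library.

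Close relatives by name were looked up for 25 members, after the members were known. Of 41 such paralogs tested, 6 were lower and 4 higher in IVM MII than in IVO MII, and 5 were lower and 7 higher in IVM MII than in GV, by the edgeR test. The shares of all genes tested were 10.3% lower and 14.3% higher against IVO MII, and 24.7% lower and 25.6% higher against GV. Lower calls in both comparisons were found for 0 of the 41 paralogs and for 3.36% of all genes tested, a share too small for the count over 41 genes to be read as a trait of the paralogs. FAM111A, the relative of FAM111B, had 17.5 and 17.7 CPM in GV, 31.3 and 22.8 in IVM MII but 67.5 and 48.0 in IVO MII, so it was lower than in IVO MII (log2 fold change -1.33 ± 0.25, edgeR adjusted p = 0.0028), with no call against GV. The KDEL receptors KDELR1 and KDELR2 showed no call against IVO MII (0.10 and 0.12). Per kilobase, KDELR2 was at 54.6 CPM per kb in IVM MII, above the 2.40 of KDELR3 in GV. The mitochondrial synthetase WARS2 was higher in IVM MII than in IVO MII (log2 fold change 1.34), and so was the sialyltransferase ST3GAL5 (2.26), while ST3GAL1 was lower (-2.10). PRICKLE2 was at 32.1 and 47.7 CPM in IVM MII, with 7.00 and 6.59 in GV.

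Exon length, a property that the rule did not use, was compared as a description. The median exon length of the members was 4038 bases (804 for IL17B to 13196 for CFAP44), close to the 3882 of the other genes past the floor and above the 2974 of all genes tested. The lowest GV or IVO MII level did enter the rule, with the same floor of 5 CPM for both sets. Its median was 20 CPM over the members, against 19.9 for those other genes. Across all genes tested, the log2 fold change of IVM MII over GV had a Spearman correlation of 0.222 with exon length, and that of IVM MII over IVO MII one of -0.126, opposite in sign.

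Chromosome 2 carried 8 of the 40 members (20%), where it carries 832 of the genes tested (5.26%). Of these, 4 followed one another within 6.87 Mb at macFas5 chr2:4156982-11031792, in the order ATP13A5, CCDC50, TPRG1 and STAC, with 19 other tested genes in the stretch. The stretch was picked after the positions of the members were seen. Of those 19, 5 were higher and 1 lower in IVM MII than in IVO MII, and 4 were higher and 5 lower than in GV. The shares over all genes tested were 14.3% higher and 10.3% lower against IVO MII, and 25.6% and 24.7% against GV. The 8 of these 19 genes past the floor had ratios from 0.25 to 1.45. For those with a kept name a ratio under 2 was fixed in advance, since they are not members. Only genes left out by name could have reached it. TP63, the transcription factor gene between CCDC50 and TPRG1 whose TA form guards oocyte quality, stood at 87.8 and 77.2 CPM in GV, 168 and 154 in IVM MII against 131 and 128 in IVO MII.

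Exons of 8 members share bases with another annotated gene, which matters because the counting used no strand. KDELR3 shares 37.9% of its exon bases with DDX17 on the opposite strand, which stood at 14 and 13.6 CPM in IVM MII, 15.0 and 12.4 in GV and 36.1 and 32.3 in IVO MII. PLPP1 shares 22.4% with SKIV2L2, which was at 43.8 and 45.9 CPM in IVM MII and 16.7 to 23.4 elsewhere, opposite to PLPP1. ATP13A5 shares 9.12% with LOC102122471, at 27.6 and 20.9 CPM in IVM MII, 46.5 and 40.2 in GV and 112 and 162 in IVO MII. For these genes reads of both strands cannot be told apart in the shared bases, and no single overlap covered more than 4% of the other 5 members.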

How the data were processed

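The authors deposited raw read counts per gene. Per the file headers they were made with featureCounts 2.0.1, counting paired reads over exons by gene on the RefSeq annotation of macFas5, without a strand option, and the deposited table also gives exon length in bases. The submitters' processing notes also name fastp, FastQC, Bowtie2 and SAMtools. Bowtie2 aligns without introns, and how junction reads were handled is not given in the sources used here.

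Levels are CPM by library total, the scale of the rule. edgeR 4.0.16 in R 4.3.3 was fitted to all 6 libraries with TMM factors (0.903 to 1.22, highest in IVM MII replicate 1), filterByExpr (15815 genes kept, all 40 members among them) and robust quasi-likelihood; tests were two-sided at 0.05. With 2 libraries a group, the biological coefficient of variation was 0.232. The procedure was tested on simulated data.

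Members, roles, the 10 family lists, the marker lists and the paralogs were chosen with earlier results of these data known; roles and paralogs were set after the members were listed. Members were named by largest ratio, highest level, smallest adjusted p for IVO MII against GV, or list membership, and the others mostly by range. At most 3 other genes a list were named by adjusted p; RERG, GAP43, GATB, ENY2, SUPT3H, DUSP5, DUSP1, TP63 and the paralogs were chosen after their values were seen. Alternatives were RLE factors, library totals, DESeq2 1.42.0, limma-voom (limma 3.58.1), other filters, the 4 compared libraries, the replicate block, a non-robust fit, each library left out and other thresholds. No sequences are shown, and 2 members enter the counts and medians but are not reported by name here.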

Additional observations from a re-analysis of the deposited data

How the results depend on the processing

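Looser rules keep all 40 members by construction: a ratio of 1.5 gave 74 genes, a floor of 1 CPM 81 and all names 68. All 40 were also kept with TMM factors (63 genes) and RLE factors (66). Both sets of factors were highest in the 2 IVM MII libraries, which lowers their values against the others and makes the ratio easier to reach. A ratio of 3 left 14 and a floor of 10 CPM 26. Leaving out 1 library gave 43 to 74 genes, the 40 among them each time, as fewer values have to pass. For IVO MII against GV, members that rose numbered 5 to 9 and those that fell 4 to 10 with 1 library left out. Calls over all genes tested varied as well, from 3370 to 4435 higher and from 3729 to 4875 lower. A filter of 10 CPM in 2 libraries gave 5 and 17 and a median of -0.50, with 39 members tested. Under it the log2 fold changes of all named members moved down by similar amounts. Examples are FLCN (2.03 to 1.70), ACSM1 (-1.82 to -2.15) and IL17B (-0.06 to -0.39). The TMM factors were computed anew from the genes that this filter kept, and their part in the shift was not tested. List genes outside the members numbered 20 to 36 higher and 10 to 19 lower in IVM MII than in IVO MII with 1 library left out, 10 lower with library totals and 12 lower with the strict filter. The replicate number as a block gave 7 members that rose and 10 that fell, and ended the call of DUSP2 alone among these members. Deviations of same-numbered libraries from their group means correlated at 0.178 between GV and IVO MII, -0.144 between GV and IVM MII and -0.114 between the MII groups, so the numbers were not taken as pairs. With the IVM MII numbers exchanged, an alternative chosen after seeing the data, the block gave 9 and 13 members, and 44 list genes higher and 33 lower. Of 570 repeats over 38 members, 507 kept direction and call, 31 lost a call, 12 gained one and 20 changed sign. Sign changes touched genes without a call: ALS2CR11 (0.02 with RLE factors and DESeq2, 0.06 with library totals, 0.01 without a filter, -0.42 to 0.34 with 1 library left out), IL17B (0.03 with library totals, -0.46 to 0.27 with 1 left out), MAP1B (-0.61 to 0.19), CCDC50 (-0.02 to 0.35) and ST3GAL6 (-0.05 to 0.26), and, with the strict filter, ATP13A5 (-0.07), ST3GAL6 (-0.23), C5H4orf27 (-0.20), CCDC50 (-0.18) and PRICKLE1 (-0.16). The lowest count of a member in any library was 38, and each group held 2 libraries.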
